A study of Mus musculus with 84 samples.

Results

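The genes described here are 9 genes of the drug-metabolizing response of the liver, chosen by symbol from 17695 genes with counts. They comprise 3 Cyp2b genes (Cyp2b9, Cyp2b10 and Cyp2b13), 3 Cyp3a genes (Cyp3a11, Cyp3a13 and Cyp3a25), the nuclear receptors PXR (Nr1i2) and CAR (Nr1i3), and the P450 reductase Por. In the files they appear as ENSMUSG00000040660 (Cyp2b9), ENSMUSG00000030483 (Cyp2b10), ENSMUSG00000040583 (Cyp2b13), ENSMUSG00000056035 (Cyp3a11), ENSMUSG00000029727 (Cyp3a13), ENSMUSG00000029630 (Cyp3a25), ENSMUSG00000022809 (Nr1i2), ENSMUSG00000005677 (Nr1i3) and ENSMUSG00000005514 (Por). Their liver RNA was quantified by TempO-Seq, which ligates paired detector oligos on each transcript and sequences the product, in 84 male B6C3F1 mice that received AIN-93G diet from 8 weeks of age, with or without an organophosphate pesticide (OPP), for 7 days. The control mice received the diet without an OPP, and the dosed groups received fenthion (FT) at 2.5, 5, 10 or 20 ppm, methidathion (MT) at 10, 25, 50 or 100 ppm, or parathion (PT) at 20, 40 or 80 ppm. Each of the 12 groups held 7 mice, 2 from experimental block 1, 3 from block 3 and 2 from block 4. RNA of 77 mice was isolated at EA and of 7 mice at EPA, the latter in the control (2), FT 20 ppm (2), MT 100 ppm (2) and MT 10 ppm (1) groups. Every comparison with control used the same 7 control mice. According to the paper, PT significantly lowered body weight and relative liver weight at all but its lowest dose. A still higher PT dose was left out by the authors because of sick and dead mice. They saw no significant change in serum liver enzymes, liver histopathology or cell proliferation. The enzyme activity of Cyp2b and Cyp3a was also measured, and only FT raised it, intermittently at its lower doses and without a dose trend.

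CAR and PXR are nuclear receptors that respond to foreign chemicals, pair with RXR on repeats of a short DNA half-site, and switch on genes of drug oxidation, conjugation and export. Cyp2b10 is the classical CAR target of mouse liver and Cyp3a11 the classical PXR target, although each receptor can act on both. Por passes electrons from NADPH to all microsomal P450 enzymes, while Cyp2b9 and Cyp2b13 are best known as genes of female mouse liver.

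Total counts per mouse lay between 6950381 and 15300589, so that 3 counts corresponded to 0.196 to 0.432 CPM (counts scaled to the total of each mouse), a floor that covers counting error only. Of 7 hepatocyte markers 6 were measured and none was at 0 in all mice. Their summed level lay between 18537 and 38185 CPM in the control mice, 23084 and 28732 at MT 100 ppm and 22448 and 38883 at PT 80 ppm, sums carried mostly by Apoa1 and Alb. Of the 6 markers, Tat (log2 fold change 1.57) and Cps1 (0.88) were called higher at PT 80 ppm by edgeR, and none was called at MT 100 ppm by edgeR. In whole liver, fewer cells of a type and less RNA per cell cannot be told apart.

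A short sequence upstream of Cyp2b10 is shown first, since Cyp2b10 had the largest change of the set and its neighbours Cyp2b9 and Cyp2b13 stayed near the limit of counting. A phenobarbital-responsive enhancer that CAR binds is known to lie upstream of Cyp2b10. The 5000 bases before the start of the Ensembl canonical transcript of each gene (GRCm39) were searched on both strands. For Por this start lies at 135717890, inside the gene coordinates given below. The search was for 2 half-sites of 6 bases, each AGGTCA or 1 of the variants AGTTCA and AGTACA, as chosen here. Matches had both in the same direction with a gap of 4 bases (DR4) or 3 bases (DR3), or facing outwards with a gap of 6 bases (ER6). DR4 was found upstream of 1.21% of 21757 protein-coding genes, DR3 of 0.988% and ER6 of 0.372%. Among the 9 genes, DR4 was found upstream of Cyp2b10, from -2298 to -2283 relative to the start on the minus strand of the gene, and upstream of Nr1i2, from -4797 to -4782. No match for DR3 or ER6 was found in the windows of the 9 genes. A match describes letters only and is no evidence of binding. Both matches contain AGTACA and so depend on its inclusion among the half-sites. As the enhancer of Cyp2b10 was already known, its match is no independent result. The windows of 56 bases are chr7:25594727-25594782 for Cyp2b10 (gene on the plus strand) and chr16:38119978-38120033 for Nr1i2 (minus strand), printed in the direction of the gene. The most similar windows upstream of Cyp2b13 (chr7:25760074-25760129) and Cyp2b9 (chr7:25871976-25872031), both on the plus strand, began at -848 and -859 from their own starts. Capitals mark the 16 bases of the repeat, and in Cyp2b13 and Cyp2b9 those of the 16 bases that equal Cyp2b10.
Cyp2b10: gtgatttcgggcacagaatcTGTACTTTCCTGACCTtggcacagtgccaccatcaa
Cyp2b13: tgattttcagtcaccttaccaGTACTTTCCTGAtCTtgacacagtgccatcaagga
Cyp2b9: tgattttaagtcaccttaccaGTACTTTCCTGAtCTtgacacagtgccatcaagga
Nr1i2: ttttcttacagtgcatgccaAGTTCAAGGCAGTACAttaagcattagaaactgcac
Counted from 1 at the 5′ end of the 16 bases, with the Cyp2b10 base first, both Cyp2b13 and Cyp2b9 carried T1A and C14T. Over the whole window, Cyp2b13 differed from Cyp2b10 at 17 of 56 positions and Cyp2b9 at 18. Neither repeat met the DR4 letters as chosen here.

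Of the receptors, Nr1i3 (CAR; chromosome 1, 171041506 to 171048270 of GRCm39, plus strand) rose 3.43-fold at PT 80 ppm, and Nr1i2 (PXR; chromosome 16, 38068685 to 38115216, minus strand) rose 1.43-fold. Nr1i3 measured 128 CPM in the lowest, 172 in the median and 328 in the highest control mouse, and 503, 657 and 1142 CPM at PT 80 ppm. All 7 mice at PT 80 ppm lay above all control mice. The log2 fold change was 1.78 (SE 0.239, adjusted p = 5.14e-08, edgeR quasi-likelihood test with Benjamini-Hochberg adjustment over 10415 genes). Over all 10415 genes, 18.6% were called at PT 80 ppm and 9.75% were called higher. Within blocks 1, 3 and 4 the log2 fold change of Nr1i3 at PT 80 ppm was 1.63, 1.74 and 1.80, with adjusted p of 0.00982, 0.0051 and 0.00159 from edgeR. The order of the group means began with PT 80 ppm (753 ± 244 CPM, SD, n = 7), followed by FT 10 ppm (326 ± 257), PT 40 ppm (318 ± 62.9), MT 100 ppm (306 ± 39.3), FT 5 ppm (273 ± 88.7), FT 20 ppm (262 ± 70.7), MT 50 ppm (246 ± 87.2), MT 10 ppm (227 ± 95.2), PT 20 ppm (226 ± 100), MT 25 ppm (220 ± 59.2), control (216 ± 80.3) and FT 2.5 ppm (207 ± 50.2). The gap between neighbours exceeded the larger SD only between PT 80 ppm and FT 10 ppm. The mean at FT 10 ppm included 1 mouse of block 1 at 899 CPM. Nr1i3 also had a log2 change at PT 40 and MT 100 ppm of 0.67 (SE 0.234, unadjusted p = 0.00559, adjusted p = 0.437 from edgeR) and 0.57 (SE 0.228, unadjusted p = 0.0142, adjusted p = 0.239), so that neither passed the test.

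Nr1i3 shares 3501 exon bases with Tomm40l, a mitochondrial import gene on the opposite strand. How reads of opposite strands were treated is not given in the sources used here. Tomm40l, which was chosen after its values were seen, measured 31.1, 38.9 and 40.5 CPM (lowest, median and highest) in control mice and 12, 17.9 and 25.6 at PT 80 ppm. The values at MT 100 ppm were 27.2, 31.7 and 39.6 CPM. Exact permutation tests of log2(CPM + 1) against control gave p = 0.000583 at PT 80 ppm and 0.053 at MT 100 ppm, for a gene chosen after its values were seen. Over the 84 mice, the Pearson correlation of Tomm40l with Nr1i3 was -0.642. All counts of Nr1i3 were fractions (100% of values not whole). Whether reads of one gene were counted for the other was not tested.

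Nr1i2 measured 28.3, 51.8 and 63.3 CPM (lowest, median, highest) in control mice and 55, 66.6 and 77.4 CPM at PT 80 ppm. The groups overlapped, with 4 of 7 mice at PT 80 ppm above the highest control mouse. The log2 fold change was 0.52 (SE 0.116, adjusted p = 6.93e-04, edgeR), and within blocks 1, 3 and 4 it was 0.79, 0.53 and 0.10 (adjusted p = 0.0103, 0.0669 and 0.899). Apart from PT 80 ppm (67.1 ± 9.43 CPM), the group means of Nr1i2 ran from 49 ± 3.76 CPM at FT 5 ppm to 37.8 ± 6.27 at PT 20 ppm, with the control at 48 ± 12.1, and no gap between neighbours exceeded the larger SD. Nr1i2 had a log2 fold change of -0.08 at MT 100 ppm, with a 95% interval from -0.30 to 0.14.

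Cyp2b10 (chromosome 7, 25597045 to 25626049, plus strand), which oxidizes many drugs and pesticides, was nearly undetected in control livers and was clearly detected at the highest MT dose. The 7 control mice held 0, 1, 0, 1, 1, 2 and 1 counts (0.0766 ± 0.0619 CPM). The 7 mice at MT 100 ppm held 6 and 14 counts in block 1, 118, 75 and 36 in block 3, and 294 and 117 in block 4, or 0.454 to 27.5 CPM (8.4 ± 9.26). All 7 lay above all control mice, and the highest value came from a mouse with RNA isolated at EPA. Together they held 660 counts against 6, a CPM ratio of 111 (95% exact interval 50.7 to 303, counting error only). Against a floor of 3 counts per control library, the mean at MT 100 ppm was at least 32.7-fold higher. An exact permutation test of log2(CPM + 1) gave p = 0.000583, and within blocks p = 0.00278, each 2-sided. Each is the smallest p possible when single mice are exchanged, although diets were assigned by cage.

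The counts of Cyp2b10 rose with the MT dose. From the lowest to the highest dose the group totals were 3 counts (0.0365 ± 0.0456 CPM), 16 counts (0.218 ± 0.301), 94 counts (1.09 ± 1.07) and 660 counts. At MT 50 ppm, 5 of 7 mice lay above the highest control mouse, and at MT 25 ppm 2 of 7. Cyp2b10 had too few counts to enter the 10415 genes tested (median count over 8), so its fold changes come from edgeR without that limit (17695 genes); they depend on how few the control counts are. There the log2 fold change was 6.65 at MT 100 ppm (SE 0.835, adjusted p = 7.01e-08) and 4.29 at MT 50 ppm (SE 1.01, unadjusted p = 5.72e-05, adjusted p = 0.506), and at MT 100 against MT 10 ppm 7.33 (SE 0.929, adjusted p = 1.50e-07). The fitted linear trend from 0 to 100 ppm had a log2 change of 7.37 (SE 0.693, adjusted p = 5.38e-13). In these fits the share of genes called was 0.0452% for MT 100 ppm, 0.00565% for MT 50 ppm, 0.0226% for the highest against the lowest MT dose and 0.0452% for the MT trend. Within blocks 1, 3 and 4 the log2 fold change at MT 100 ppm was 4.14, 6.54 and 7.05 (edgeR adjusted p = 0.844, 0.00102 and 0.00261). In EA mice alone, with 5 mice in each of these groups, it was 6.18 (adjusted p = 2.74e-04).

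At PT 80 ppm Cyp2b10 was high in block 1. Its values were 15.9 and 4.25 CPM in block 1, 0.616, 0.672 and 0.37 in block 3, and 0.216 and 0 in block 4, against at most 0.178 in the control. The mean was 3.15 ± 5.81 CPM and 6 of 7 mice lay above the highest control mouse. The log2 fold change was 5.47 (SE 0.923, adjusted p = 1.33e-05, edgeR without the count limit, where 10.4% of genes were called), 7.55 within block 1, 3.09 within block 3 and 0.39 within block 4. The difference between blocks passed a test of the interaction (adjusted p = 2.11e-07, edgeR). Without the 2 mice of block 1, the log2 fold change was 2.33 and did not pass (adjusted p = 0.13). PT 80 against PT 20 ppm gave 5.78 (SE 1, adjusted p = 1.90e-05, 11.9% of genes called), and 2.64 without those mice (adjusted p = 0.0918). The group order of the means was MT 100, PT 80 and MT 50 ppm, then FT 20 ppm (0.296 ± 0.381 CPM), MT 25 ppm, control, FT 2.5 ppm (0.0594 ± 0.0811), FT 10 ppm (0.0394 ± 0.0721), MT 10 ppm, PT 20 ppm (0.0358 ± 0.0448), PT 40 ppm (0.0338 ± 0.0422) and FT 5 ppm (0.015 ± 0.0398). With these wide spreads, no gap between neighbours exceeded the larger SD, and from FT 2.5 ppm down the groups held 5 counts or fewer.

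**Figure D1:**
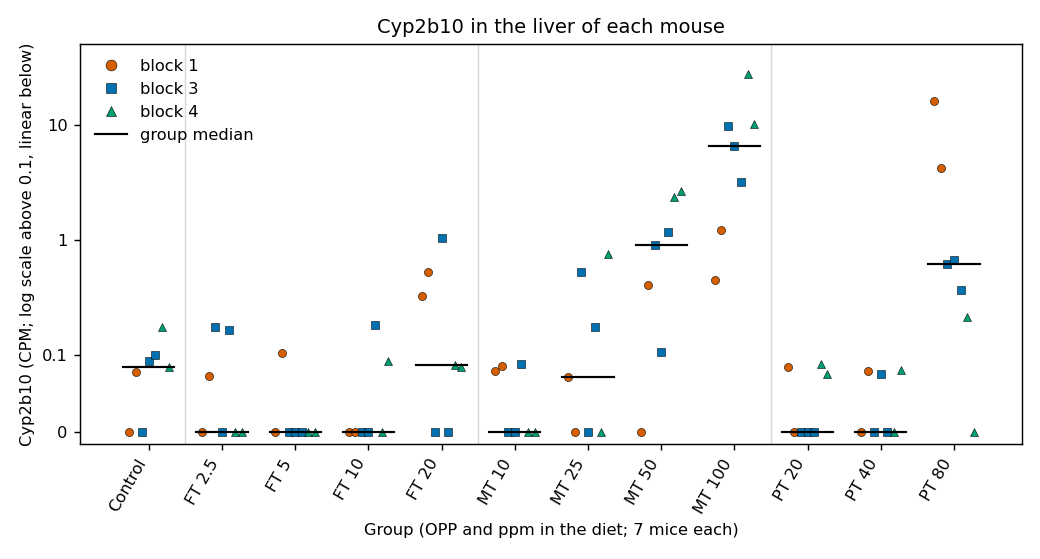
Cyp2b10 in CPM for each of the 84 mice by group; the axis is logarithmic above 0.1 CPM and linear below, symbols give the block, and lines the group medians. At MT 100 ppm all 7 mice lie above the control mice, with blocks 3 and 4 above block 1, whereas at PT 80 ppm the 2 mice of block 1, at 15.9 and 4.25 CPM, lie above the others.

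The other Cyp2b genes were at the edge of detection. Cyp2b9 (chromosome 7, 25872835 to 25910086, plus strand) was at 0 in 64 of 84 mice and reached 11 counts at most. At PT 80 ppm the 7 mice held 1, 11, 9, 0, 3, 0 and 1 counts against 1 count over the 7 control mice, a ratio of 26.3 (95% exact interval 4.31 to 1082, counting error only). The log2 fold change was 4.36 (SE 1.03, adjusted p = 0.00259, edgeR without the count limit), and an exact permutation test gave p = 0.021, or 0.122 after Benjamini-Hochberg adjustment over 99 pairs of gene and group. Cyp2b13 (chromosome 7, 25760922 to 25795622, plus strand) was at 0 in 82 mice, with 7 counts in 1 mouse at FT 20 ppm and 4 counts in 1 mouse at MT 100 ppm. At MT 100 ppm, where Cyp2b10 had 660 counts, Cyp2b9 had 2 and Cyp2b13 had 4. In stretches of 50 bases of their Ensembl canonical transcripts, 9.69% of those of Cyp2b10, 11.2% of Cyp2b9 and 27.3% of Cyp2b13 also occurred in another gene.

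Cyp3a11 (chromosome 5, 145791236 to 145816867, minus strand), a major Cyp3a enzyme of mouse liver, was higher than control at FT 10, MT 100 and PT 80 ppm. In the control its lowest, median and highest values were 21.8, 42.2 and 73.2 CPM. The MT 100 ppm mice had 84.7, 127 and 161 CPM, without overlap with the control. At FT 10 ppm they were 62.6, 96.5 and 166 CPM and at PT 80 ppm 59.3, 106 and 192 CPM, each with 6 of 7 mice above the highest control mouse. The log2 fold change was 1.29 at MT 100 ppm (SE 0.243, adjusted p = 0.0028), where 1 of the 6 genes of the set tested was called higher, against 0.0672% of all genes higher and 0.0768% in either direction. It was 0.99 at FT 10 ppm (SE 0.247, adjusted p = 0.0299), where again 1 of 6 was called higher, against 0.835% of all genes higher and 1.57% in either direction, and 1.12 at PT 80 ppm (SE 0.248, adjusted p = 5.58e-04), all from edgeR. Exact permutation tests gave p = 0.000583, 0.0035 and 0.0035, and within blocks 0.00278, 0.00556 and 0.00556.

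The change at FT 10 ppm was under 2-fold, so that 0 of 6 genes were called at 2-fold or more by edgeR, against 0.115% of all genes. The call was lost in EA mice alone (0.94, adjusted p = 0.0762) and without control mouse 1, 5 or 6 (0.83, 0.92 and 0.97, adjusted p = 0.0674, 0.123 and 0.0518, edgeR). For MT 100 ppm the log2 change was 1.31, 1.43 and 1.04 within blocks 1, 3 and 4 (edgeR adjusted p = 0.834, 0.0565 and 0.702), and 1.16 in EA mice alone (adjusted p = 0.0966). For PT 80 ppm it was 1.72, 0.50 and 1.32 within blocks (adjusted p = 0.01, 0.424 and 0.0563).

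The levels of Cyp3a11 were not ordered by dose within each OPP. The order of its means was MT 100 ppm (120 ± 27.7 CPM), PT 80 ppm (118 ± 46.4), FT 10 ppm (102 ± 35.4), MT 10 ppm (88.4 ± 19.5), MT 50 ppm (85.8 ± 27.2), FT 2.5 ppm (77.9 ± 13.6), PT 20 ppm (70.8 ± 26.4), FT 5 ppm (69.1 ± 15.9), PT 40 ppm (69 ± 29.4), FT 20 ppm (64.3 ± 16.9), MT 25 ppm (50.7 ± 26.4) and control (48.5 ± 19.3). No gap between neighbours exceeded the larger SD, and all 11 dosed groups had a mean above the control mean. At MT 10 ppm, below MT 25 ppm in dose, the log2 fold change was 0.81 (SE 0.243, unadjusted p = 0.00135, adjusted p = 0.255), whereas at MT 25 ppm it was -0.04 (95% interval -0.52 to 0.44). The MT trend over dose was called for Cyp3a11 (log2 change 1.08 from 0 to 100 ppm, SE 0.207, adjusted p = 0.00417, edgeR), 1 of the 6 genes tested against 0.0576% of all genes higher and 0.0672% in either direction.

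Cyp3a25 (chromosome 5, 145913516 to 145946432, minus strand), another hepatic Cyp3a enzyme, rose at PT 80 ppm. It measured 206, 267 and 417 CPM (lowest, median, highest) in the control and 391, 637 and 897 CPM at PT 80 ppm. The ranges overlapped, with 5 of 7 mice above the highest control mouse. Its log2 change was 1.04 (SE 0.175, adjusted p = 7.62e-06, edgeR), and 1.80, 0.99 and 0.03 within blocks 1, 3 and 4 (adjusted p = 1.73e-04, 0.0027 and 0.981). The block difference passed its test (adjusted p = 0.0384, edgeR). The other group means lay between 377 ± 88 CPM at MT 100 ppm and 254 ± 53.7 at PT 20 ppm, around the control at 292 ± 77.8, with no gap between neighbours above the larger SD. Its log2 fold change at MT 100 ppm was 0.37 (SE 0.168, adjusted p = 0.307).

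Cyp3a13 (chromosome 5, 137891193 to 137919882, minus strand), a Cyp3a gene also found in the intestine, was called in no dosed group against control over all blocks by edgeR. It measured 28.1, 39.4 and 71.1 CPM (lowest, median, highest) in the control and 17.7, 23.2 and 35.7 CPM at FT 10 ppm, where 5 of 7 mice lay below the lowest control mouse. The log2 fold change of -0.80 just missed the threshold (SE 0.233, unadjusted p = 9.32e-04, adjusted p = 0.0545, edgeR). Except at PT 80 ppm (67.9 ± 36.2 CPM), all dosed groups had a mean below the control mean of 46.1 ± 17.6 CPM, and no gap between neighbours in the order exceeded the larger SD. At PT 80 ppm the log2 fold change was 0.50 (SE 0.23, adjusted p = 0.123, edgeR), with 1.70 within block 1 (adjusted p = 9.06e-04), 0.06 within block 3 and -0.14 within block 4. Without control replicate 5 the value over all blocks was 0.68 and was called (adjusted p = 0.0383). The interaction with block was called (adjusted p = 0.0115, edgeR).

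Most Cyp3a genes lie as near copies on chromosome 5, and every count of Cyp3a11 and Cyp3a25 in the 84 mice was a fraction (100% of values not whole). Of the 50-base stretches of Cyp3a11, 14.2% also occurred in other genes, and of Cyp3a25 26.7%, mostly in Cyp3a59, whereas Cyp3a13, Nr1i2, Nr1i3 and Por shared none. The counts of Cyp3a41a and Cyp3a41b stood in a ratio of 1.1 in every mouse, so these cannot be told apart. The ratio of Cyp3a11 to Cyp3a41a ranged from 0.518 to 2.14, with a median of 1.13. Of the other Cyp2b and Cyp3a genes listed, 6 of 8 had counts and 4 passed the count limit. All 4 tested were called higher at PT 80 ppm, by a log2 of 1.45 for Cyp3a16, 1.46 for Cyp3a59 and 1.05 each for Cyp3a41a and Cyp3a41b (median 1.25, against 0.01 over all genes), and 0 of 4 at MT 100 ppm by edgeR and by DESeq2, where 3 of 4 had unadjusted p between 0.00136 and 0.0031.

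Por (chromosome 5, 135698887 to 135764182, plus strand) rose 5.04-fold at PT 80 ppm, the largest fold change among the 6 genes above the count limit there. Its values were 956 and 802 CPM in block 1, 62.9, 51.4 and 174 in block 3, and 87.7 and 159 in block 4. In the control, they were 66.5 and 78.4 in block 1, 33.3, 30.4 and 30.2 in block 3, and 28.2 and 21.9 in block 4. In each block, every mouse at PT 80 ppm was above the control mice of the same block. Over all blocks the groups overlapped, with 5 of 7 mice above the highest control mouse. Por changed by a log2 of 2.33 (SE 0.324, adjusted p = 1.16e-07, edgeR), and 3.51, 1.27 and 2.27 within blocks 1, 3 and 4 (adjusted p = 5.64e-05, 0.0899 and 0.0236). The blocks differed in it (adjusted p = 0.00171, edgeR), and without the block 1 mice at PT 80 ppm it was 1.63 (adjusted p = 1.41e-04). Leaving out PT 80 ppm, the mean of Por was 88.4 ± 32 CPM over 22 mice of block 1, 38.2 ± 16.1 over 33 of block 3 and 30.2 ± 8.39 over 22 of block 4. The group mean was 328 ± 382 CPM at PT 80 ppm, and the other groups ran from 64.5 ± 43.4 at PT 40 ppm through FT 20 ppm (61.3 ± 41) and control (41.3 ± 21.8) to FT 10 ppm (38.5 ± 8.52), with no gap between neighbours above the larger SD. Por had a log2 fold change of 0.10 at MT 100 ppm with a 95% interval from -0.49 to 0.69.

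**Figure D2:**
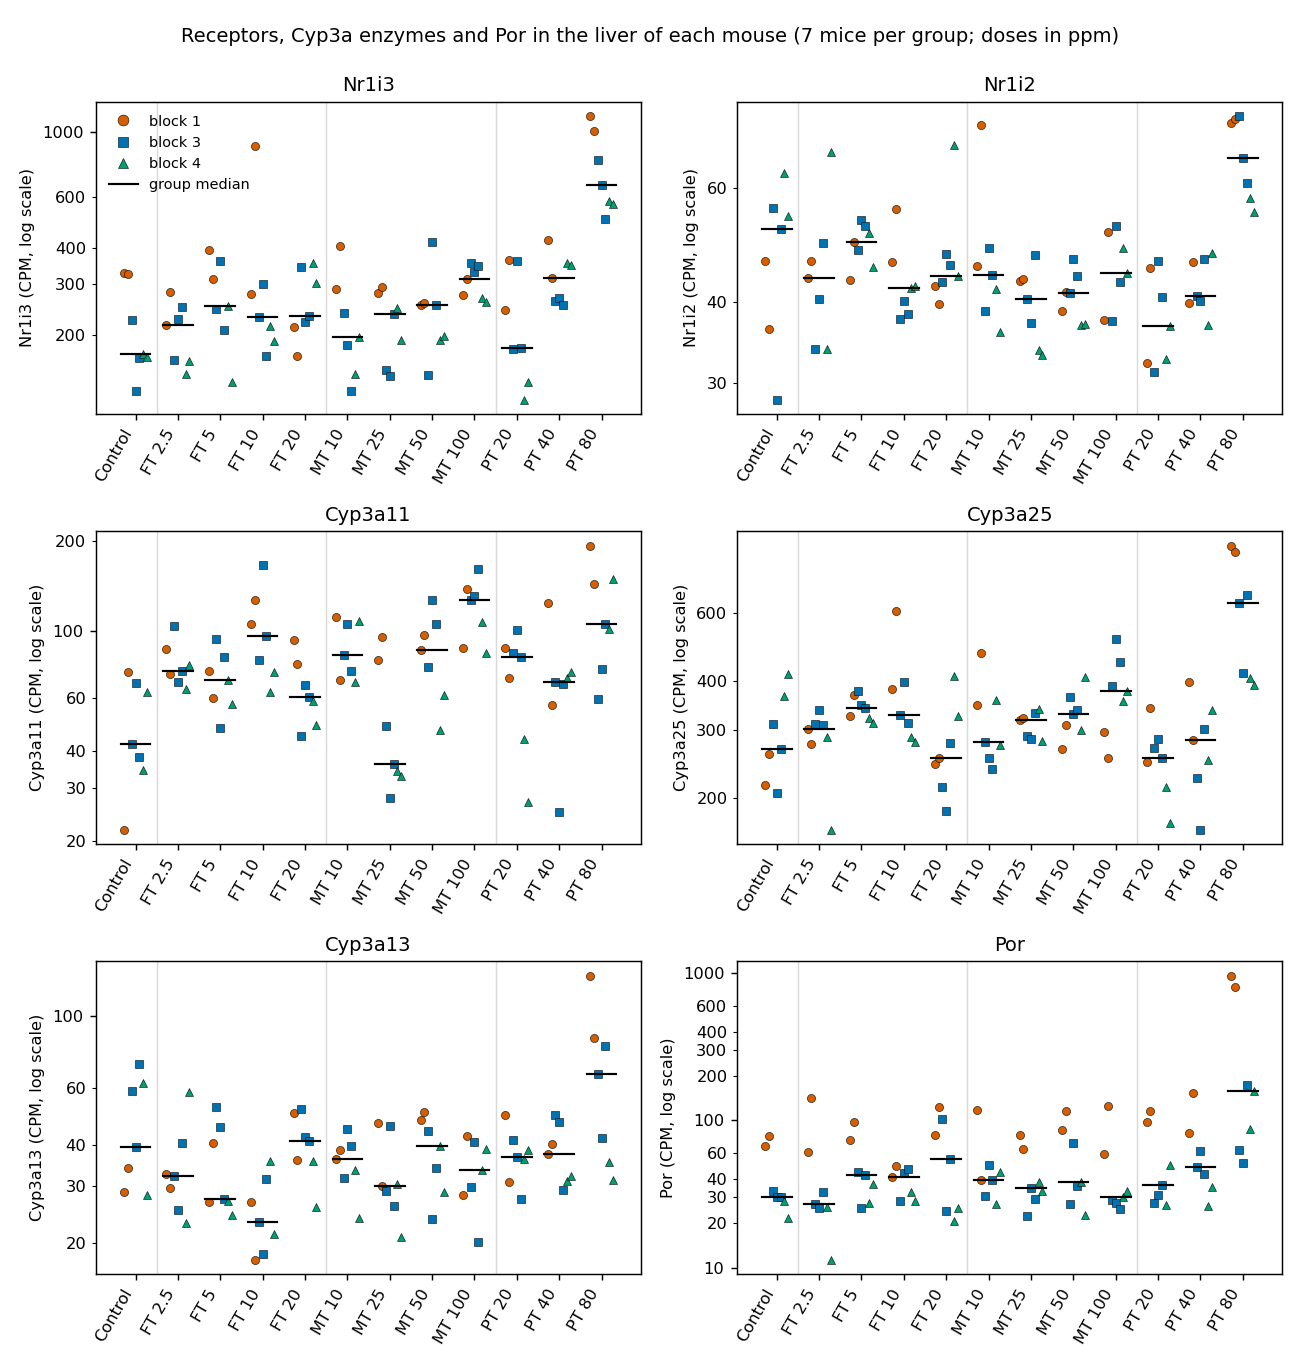
Levels in CPM (log axes) of the 2 receptors, the 3 Cyp3a genes and Por in each of the 84 mice by group, with block by symbol and group medians as lines. Nr1i3 at PT 80 ppm lies between 503 and 1142 CPM, above all control mice, Cyp3a11 at MT 100 ppm lies above all control mice, and Por is higher in block 1 in most groups.

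Across the groups, 5 of the 6 genes tested were called higher at PT 80 ppm (Por, Nr1i3, Cyp3a25, Nr1i2 and Cyp3a11, against 9.75% of all genes called higher). Of these 5 genes, 4 changed by at least 2-fold, namely Por (5.04), Nr1i3 (3.43), Cyp3a11 (2.18) and Cyp3a25 (2.06), against 1.63% of all genes. All 6 were called at PT 80 against PT 20 ppm, where 21.9% of all genes were called and 11.4% called higher, with log2 changes of 2.13 (Por), 1.62 (Nr1i3), 1.15 (Cyp3a25), 0.71 (Nr1i2), 0.70 (Cyp3a13) and 0.66 (Cyp3a11). Without the block 1 mice at PT 80 ppm, Cyp3a11 (0.51, adjusted p = 0.202) and Cyp3a13 (0.31, adjusted p = 0.404) no longer passed. In the trend over the PT dose, 5 of 6 were called higher, against 11.9% of all genes. The part of the lower body and liver weights under PT in these calls was not tested. No gene of the 6 was called at FT 2.5, FT 5, FT 20, MT 10, MT 25, MT 50, PT 20 or PT 40 ppm by edgeR, DESeq2 or limma. At an unadjusted p under 0.05 by edgeR there was 1 at FT 2.5, MT 10 and MT 50 ppm (each Cyp3a11), 1 at PT 40 ppm (Nr1i3) and 0 in the others. Among all genes, an unadjusted p under 0.05 was found for 10.7% at FT 2.5, 7.59% at FT 5, 3.98% at FT 20, 9.97% at MT 10, 5.79% at MT 25, 3.99% at MT 50, 5.91% at PT 20 and 8.51% at PT 40 ppm. The genes called among all genes in these groups were 0.00960% at FT 2.5, MT 50 and PT 20 ppm and 0 elsewhere. Neither FT 20 against FT 2.5 ppm, the FT trend nor MT 100 against MT 10 ppm (0, 0 and 0.0384% of all genes) called any of the 6 by these tools, with 1 gene each at an unadjusted p under 0.05 (Por, Por and Nr1i3, against 9.78%, 4.33% and 6.67% of all genes).

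**Figure D3:**
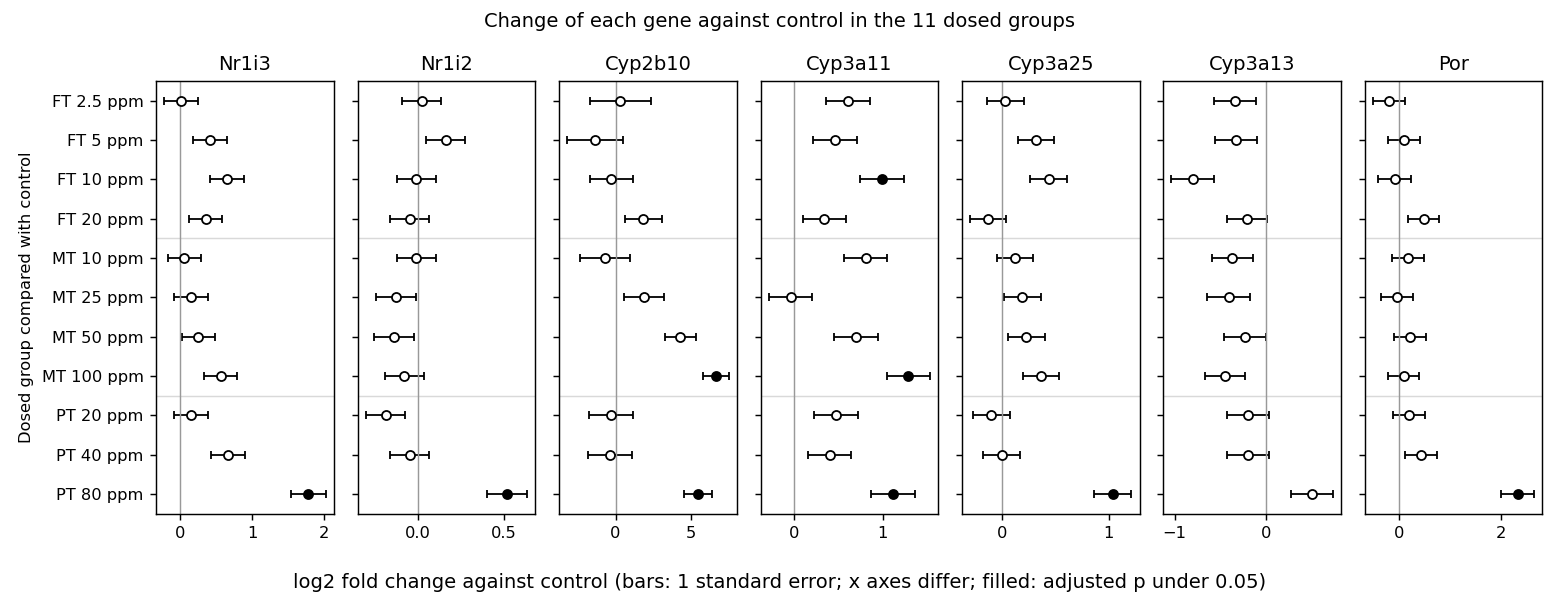
Log2 fold change against control (x axes, which differ between panels) with 1 standard error for 7 genes in the 11 dosed groups, filled where the adjusted p was under 0.05; Cyp2b10 is from the fit without the count limit. Calls stand at PT 80 ppm for 6 genes, at MT 100 ppm for Cyp2b10 and Cyp3a11, and at FT 10 ppm for Cyp3a11.

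**Figure D4:**
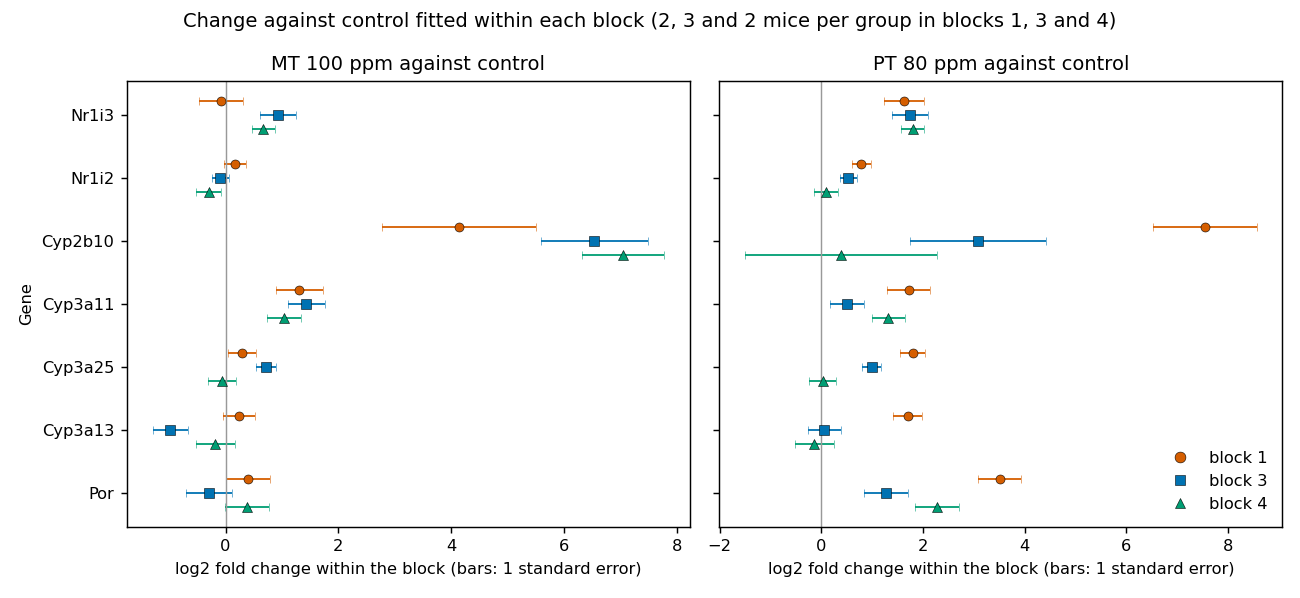
Log2 fold change against control with 1 standard error, fitted within blocks 1, 3 and 4 (2, 3 and 2 mice per group), for MT 100 and PT 80 ppm. At PT 80 ppm Cyp2b10 falls from 7.55 in block 1 to 0.39 in block 4, while Nr1i3 stays between 1.63 and 1.80.

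FT and MT were both fed at 10 ppm, and FT and PT both at 20 ppm. FT carries a methylthio-phenyl group and MT a thiadiazole ring, both as dimethyl esters, whereas PT is a diethyl ester with a nitrophenyl group. At FT 10 against MT 10 ppm, the largest difference among the 6 genes was that of Nr1i3, at a log2 of 0.60 (95% interval 0.15 to 1.05, unadjusted p = 0.0108, adjusted p = 0.575, edgeR), and that of Cyp3a11 was 0.18 (-0.29 to 0.65). At FT 20 against PT 20 ppm, the differences lay between -0.12 for Cyp3a11 (-0.61 to 0.36) and 0.28 for Por (-0.31 to 0.87). None of the 6 was called in either pair by edgeR, DESeq2 or limma (0 of 10415 genes by edgeR), and at an unadjusted p under 0.05 there was 1 (Nr1i3) and 0, against 7.65% and 3.40% of all genes. The intervals of the 6 genes leave room for differences of up to a log2 of 1.05, and those of Cyp2b10 are wider, at 0.40 (-4.10 to 4.90) for FT 10 against MT 10 ppm and 2.15 (-0.62 to 4.91) for FT 20 against PT 20 ppm. The highest doses differed between the OPPs and were not tested against each other.

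Other genes known as CAR or PXR targets were described from a list of 26, of which 24 were tested. Of these 24, 15 were called higher and 1 lower at PT 80 ppm (9.75% and 8.89% of all genes), with a median log2 fold change of 1.10 against 0.01 over all genes. These included Slco1a4, an organic anion importer (3.12), Ugt1a1, the bilirubin glucuronosyltransferase (1.11), Cyp2c54 (2.03), Cyp2c37 (2.32), Sult1d1, a sulfotransferase (2.06), and Gadd45b, a stress-induced gene (3.99), the 6 with the smallest p (adjusted p from 1.29e-12 to 4.66e-08, edgeR). Aldh1a7 was the gene called lower (-0.84, adjusted p = 4.25e-06). Without the block 1 mice at PT 80 ppm, 13 were called higher and 1 lower. Summed over the 24 genes measured, the level was 6330 to 12129 CPM at PT 80 ppm and 6114 to 10619 at MT 100 ppm, both above the 2503 to 4259 of the control. This sum is carried mostly by Cyp2c29 and Ugt1a1, with medians of 20176 and 14793 counts over all mice, against 3960 for Cyp2c54, the next. It therefore does not describe the list as a whole. Of the same list 4 were called higher at MT 100 ppm (0.0672% of all genes) and none lower by edgeR, namely Cyp2c55 (2.77), Cyp2c29 (2.54), Cyp2c50 (1.36) and Cyp2c54 (1.26), with a list median of 0.38 against -0.01, and in EA mice alone 2 were called. Cyp2c29 was also called higher at MT 50 ppm (1.28, adjusted p = 4.02e-04, edgeR), where 0.00960% of all genes were called. Against MT 10 ppm, 3 were called higher at MT 100 ppm (0.0384% of all genes called), namely Cyp2c29 (2.10, adjusted p = 2.07e-11), Cyp2c55 (1.91, adjusted p = 1.56e-06) and Cyp2c54 (1.12, adjusted p = 0.00718). At FT 10 ppm 2 were called higher (0.835% of all genes), Cyp2c55 (1.33, adjusted p = 0.024) and Cyp2c29 (0.87, adjusted p = 0.024), and 0 without control replicate 5. Cyp2c55 had a log2 fold change of -0.31 (SE 0.326, adjusted p = 0.573) at PT 80 ppm, where Cyp2c29 had 1.39 (adjusted p = 7.05e-07).

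**Figure D5:**
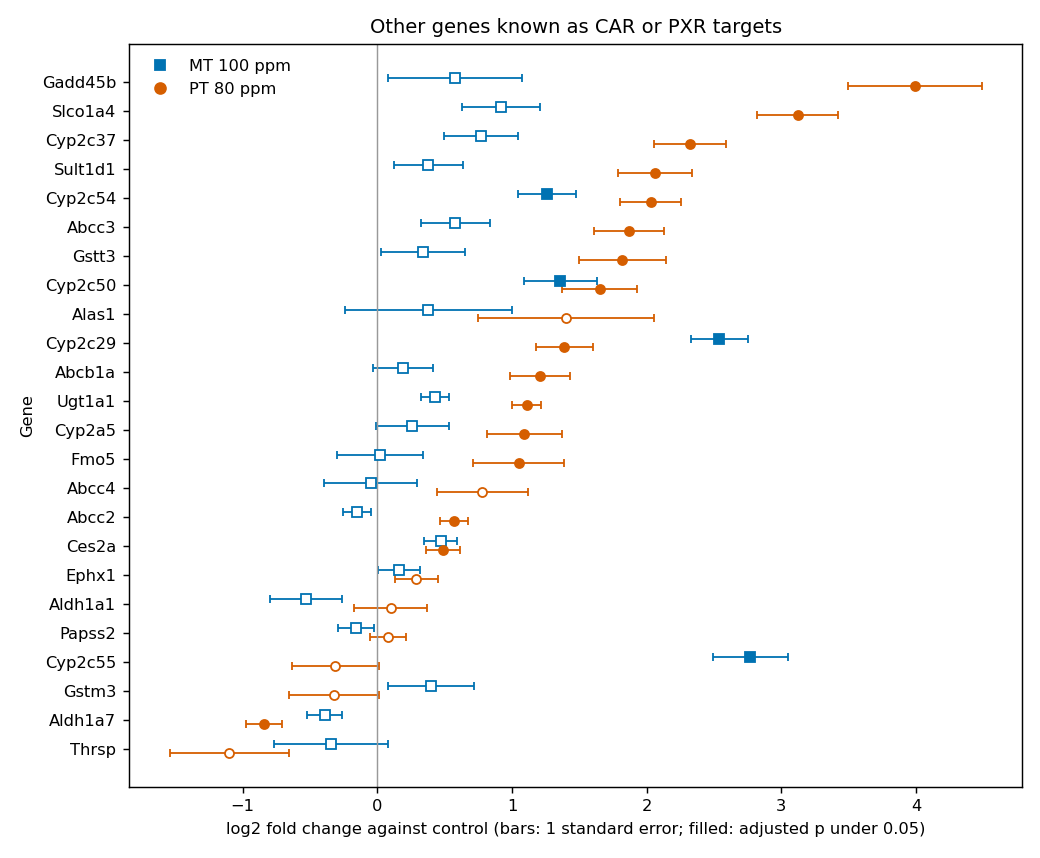
Log2 fold change against control with 1 standard error for 24 other genes known as CAR or PXR targets at MT 100 ppm (squares) and PT 80 ppm (circles), filled where the adjusted p was under 0.05. Cyp2c55 and Cyp2c29 lie farthest to the right at MT 100 ppm, and Gadd45b and Slco1a4 at PT 80 ppm.

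Of 15 partners and regulators of CAR and PXR, Hnf4a (0.53, adjusted p = 5.59e-04), Ppargc1a (1.10, adjusted p = 5.12e-05) and Foxo1 (0.64, adjusted p = 0.0477), a liver transcription factor, a coactivator of energy metabolism and an insulin-regulated factor, were called higher at PT 80 ppm, and none lower, by edgeR. Over all genes, 9.75% were called higher and 8.89% lower at PT 80 ppm, for comparison with this list and the electron donors below. Without the block 1 mice, 1 of the 15 was called, and the share of all genes in that fit is not given here. Rxra, the partner of both receptors, had a log2 fold change of 0.03 (SE 0.0837) at PT 80 ppm and -0.06 (SE 0.081) at MT 100 ppm. At FT 10 ppm 3 of the 15 were called lower by edgeR, against 0.739% of all genes. Among them were the glucocorticoid receptor Nr3c1 (-0.43, adjusted p = 0.024) and the coactivator Ncoa1 (-0.27, adjusted p = 0.0299). No gene of this list was called at MT 100 ppm by edgeR or DESeq2. Of the 4 other electron donors of P450, Cyb5a (cytochrome b5) was higher at PT 80 ppm (0.69, adjusted p = 1.83e-09), and Cyb5r3 (-0.63, adjusted p = 3.48e-05) and Cyb5b (-0.49, adjusted p = 0.002) were lower, so that Por and the cytochrome b5 reductase Cyb5r3 moved in opposite directions. At FT 10 ppm Cyb5r3 was higher (0.53, adjusted p = 0.0224), where 0.835% of all genes were called higher. At FT 2.5 ppm 1 of the 4 was also called higher by edgeR, where 0.00960% of all genes were called.

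Other lists also held called genes at PT 80 ppm, where 9.75% of all genes were called higher and 8.89% lower. Of 10 male-predominant liver genes 6 were called lower and none higher by edgeR (summed level 812 to 5970 CPM against 5752 to 13716 in the control), and of 4 female-predominant genes tested 4 were called higher (summed level of the 12 measured 143 to 1725 against 69.6 to 159 CPM). These were Cyp17a1, a steroid hydroxylase (2.38), and the Cyp3a genes Cyp3a16, Cyp3a41a and Cyp3a41b given above. Of 5 Kupffer cell markers tested 2 were called lower, with a summed level of all 6 measured of 22.5 to 105 CPM against 78.1 to 166, and 0 were called without the block 1 mice at PT 80 ppm. At MT 100 ppm no gene of these lists was called by edgeR, and the summed Kupffer level was 60.3 to 106 CPM. Pericentral hepatocyte genes, where CAR targets are mainly expressed, had 2 of 8 called higher (Cyp2e1, 0.98, and Slc1a2, 0.47) and 1 lower (Slc13a3, -0.90) at PT 80 ppm, with a median of 0.34. Their summed level was 16109 to 26374 CPM against 7239 to 14924, and 8194 to 13220 at MT 100 ppm, but this sum is largely the level of Cyp2e1, with a median of 109038 counts over all mice against 3064 for Glul, the next. Of the periportal genes, 3 of 9 were called higher and 1 lower. Endothelial markers had 0 of 6 called at PT 80 ppm by edgeR, stellate markers 1 of 4 higher, the only bile duct marker tested was lower (Spp1, -1.11, adjusted p = 0.00106), and lymphocyte markers had 0 of 1 called. The part of these lists in the values of the Cyp2b, Cyp3a and receptor genes was not tested.

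The genes whose levels followed those of Cyp2b10 and Cyp3a11 most closely were named by the Pearson correlation of log2(CPM + 1) over the 84 mice, after the effects of block and isolator, estimated beside the groups, were subtracted. For Cyp2b10 they were Cyp2c29 (0.689), Cyp3a16 (0.544), Fmo2 (0.523), Sult1d1 (0.508) and Slc13a2 (0.504). With group means subtracted as well, these were 0.203, 0.449, 0.696, 0.593 and 0.364, so that the likeness of Cyp2c29 lay mostly between groups and that of Fmo2 within them. For Cyp3a11 they were Cyp3a41a and Cyp3a41b (0.79 each, which share sequence with it), Aldh6a1 (0.7), Chpt1 (0.684) and Nup88 (0.68). Cyp2b10 and Cyp3a11 had a correlation of 0.393 over all mice and 0.0969 within groups. Nr1i3 had 0.677 with Cyp3a25, 0.294 with Cyp2b10 and 0.367 with Cyp3a11 over all mice, and 0.447, 0.134 and 0.254 in the 77 mice outside PT 80 ppm. All mice share the design and the assay, and no test was made.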

How the data were processed

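Liver RNA of 84 mice was measured by TempO-Seq. As described by the authors, reads were trimmed, aligned with STAR to mouse build mm39 (GRCm39) and assigned to Ensembl transcripts by the Partek E/M algorithm, which gave the deposited estimated counts per gene (18.7% of values not whole). The authors also deposited log2 CPM values that they adjusted for block and isolator with a general linear model, treated here as a score because they reach below 0, and used only as an alternative. No probe sequences were used here, so the part of each transcript that was measured is not given.

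Total counts per mouse were 6950381 to 15300589. CPM were counts scaled to this total. Intervals and floors of 3 counts cover counting error only. Counts were rounded to whole numbers and tested with edgeR 4.0.16 (R 4.3.3; TMM scaling, quasi-likelihood F-test) in one model with group, block and isolator over all 84 mice, for 10415 genes with a median count above 8. Cyp2b9, Cyp2b10 and Cyp2b13 did not reach this limit and were taken from the same fit without it (17695 genes). P-values were adjusted by Benjamini-Hochberg within each comparison, a gene was called at an adjusted p under 0.05, and intervals are 95%. Dose trends were linear in ppm over the control and the doses of 1 OPP and are given as the change from 0 to the highest dose. Exact permutation tests (2-sided) compared means of log2(CPM + 1), 7 mice against 7, over 3432 arrangements, or 720 within blocks. Alternatives used DESeq2 1.42.0, limma 3.58.1 with a pseudocount of 1 or 0.25, RLE scaling, no count limit, no covariates, EA mice alone, the mice of 1 OPP with the control, single blocks, the deposited adjusted values, and each control, MT 100 ppm and PT 80 ppm mouse left out in turn. The edgeR and DESeq2 scripts were tested on simulated data. Other values were computed with Python 3.11.15, numpy 2.4.6, pandas 2.3.3 and scipy 1.17.1, and plots with matplotlib 3.10.9. Mice were grouped by the GEO labels, and each is a separate animal. According to the paper, mice were housed several per cage and whole cages were randomized to the diets. The labels used here give no cage, so all tests treated mice as independent. Any likeness between mice of the same cage was not accounted for, and p-values may be too small.

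The 9 genes and all lists were chosen with earlier results of these data known. The rule was to name all 9 in every comparison, but those not called in a comparison are in part given only by counts or ranges. Of each other list, the rule was to name up to 6 called genes with the smallest p, but some are given only by counts. For Cyp2b10 and Cyp3a11 the 5 genes with the highest correlation are named. Cyp17a1, Spp1 and Tomm40l were looked at beside them.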

Additional observations from a re-analysis of the deposited data

Results flagged for a closer look

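In 7 of the 81 gene and group combinations tested, 1 mouse stood farther from the other 6 than Dixon's 95% limit allows (gap over range above 0.568). For normally distributed values chance gives about 1 in 20, a rate that does not hold for counts near 0. Nr1i3 was 899 CPM in 1 mouse of block 1 at FT 10 ppm, with the next at 300 CPM. Nr1i2 was 69.7 CPM in 1 mouse of block 4 at FT 20 ppm and 74.9 CPM in 1 mouse of block 1 at MT 10 ppm, with the next at 47.3 and 48.4 CPM. Cyp3a25 was 166 CPM in 1 mouse of block 4 at FT 2.5 ppm, with the next at 275 CPM. Por was 117 CPM in 1 mouse of block 1 at MT 10 ppm, with the next at 49.7 CPM. Cyp2b13 was above 0 in 1 mouse at FT 20 ppm (0.728 CPM) and 1 at MT 100 ppm (0.374 CPM), and at 0 in the other mice of these groups. There the gap equals the range, so the limit was passed by construction.

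At PT 80 ppm, 4 genes differed between blocks in their change against control in an edgeR test of the interaction, with adjusted p of 2.11e-07 for Cyp2b10, 0.00171 for Por, 0.0115 for Cyp3a13 and 0.0384 for Cyp3a25. Against block 1, the log2 change of Cyp2b10 differed by -4.53 in block 3 and -7.59 in block 4. For Por the differences were -2.08 and -1.32 and for Cyp3a13 -0.90 and -1.49. Cyp3a11 (adjusted p = 0.0909), Nr1i2 (0.487) and Nr1i3 (0.862) did not pass the same edgeR test. At MT 100 ppm the interaction of Cyp2b10 had an unadjusted p of 0.0134 and an adjusted p of 1, with fitted differences of 2.31 and 2.89. The cause of the block differences was not tested.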

How the results depend on the processing

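Counts are of the 6 genes above the count limit. For most alternatives the share of all genes called is not given here. A changed count can therefore reflect how many genes a setting calls, and is no result about the 6 genes. The same holds for the counts given above in EA mice alone, without single mice or without the block 1 mice. At FT 10 ppm the count of 1 became 0 within each block, in EA mice, with only FT and control mice, at 2-fold or more, and in the permutation test within blocks, and 2 with DESeq2 or without covariates; leaving out single control mice gave 0 to 2. At MT 100 ppm the count of 1 became 0 within each block, in EA mice and in the permutation test within blocks, and 2 without the count limit, where Cyp2b10 entered. The MT trend (1) gave 0 within blocks 1 and 4 and in EA mice, and 2 within block 3 and without the count limit, and MT 100 against MT 10 ppm (0) gave 1 without it. At PT 80 ppm the count of 5 became 6 within block 1, 2 within block 3, 2 within block 4, 3 in the exact permutation test and 0 in that within blocks, and leaving out single mice gave 5 to 6. Within blocks the smallest possible p of 0.00278, adjusted over 99 pairs, gave 0.0688 here, so that test could make no call. PT 80 against PT 20 ppm (6) and the PT trend (5) each gave 3 within block 4. FT 20 against PT 20 ppm gave 1 within block 4, and MT 10 ppm 1 in the exact permutation test. On the authors' adjusted values, with groups only, the counts were 2 at FT 2.5 and FT 5 ppm, 5 at FT 10, 3 at FT 20, 3 at MT 10, 5 at MT 25, 3 at MT 50, 5 at MT 100, 5 at PT 20 and 4 at PT 40 ppm, 2 at FT 10 against MT 10 ppm, 2 in the FT trend, 2 at MT 100 against MT 10 ppm and 4 in the MT trend. The cause was not tested. The share of all genes called on these adjusted values is not given here, so these counts are no result about the 6 genes. Single changes (log2) at MT 100 ppm, PT 80 ppm and PT 80 against PT 20 ppm that turned their sign were, within block 1, Cyp3a13 (0.24), Nr1i2 (0.17) and Nr1i3 (-0.08) at MT 100 ppm; within block 3, Por at MT 100 ppm (-0.29) and Cyp3a11 at PT 80 against PT 20 ppm (-0.29); within block 4, Cyp3a25 at MT 100 ppm (-0.06) and Cyp3a13 at PT 80 ppm (-0.14) and against PT 20 ppm (-0.27); and Por at MT 100 ppm without replicate 6 (-0.02), where leaving out single mice gave -0.02 to 0.21. At FT 10 and MT 50 ppm, 7 of 36 values within single blocks had the opposite sign to that over all blocks, none of them called in either. Of the other single changes recomputed under the alternatives, 533 kept direction and side of the threshold, 44 no longer passed and 8 newly passed. DESeq2 gave no adjusted p for Cyp2b10 at MT 100 ppm. The fits without the block 1 mice at PT 80 ppm, of the interaction, of the permutation within blocks and with Cyp2b genes added were chosen after seeing the data. Few counts limit Cyp2b9, Cyp2b13 and Cyp2b10 in the control. No paired analysis was possible because the labels give no replicate numbers; block was in the model.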
